A study of Homo sapiens with 12 samples.

Results

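Cohesin is the protein ring that entraps DNA, and CTCF is the DNA-binding protein at which moving cohesin most often stops. Transcripts of 10 genes are described here: SMC1A, SMC3 and RAD21 of the ring, its alternative subunits STAG1 and STAG2, the loader NIPBL with its partner MAU2, the ring-bound regulators PDS5A and PDS5B, and CTCF. The genes were chosen by name and role, and they are 10 of the 26364 genes listed in the count files. All 10 passed the filter on low counts, which left 12671 genes for testing. RNA was sequenced from HL-60 cells, an established human promyelocytic leukemia line that takes on features of neutrophils in all-trans retinoic acid (ATRA). Of the 12 libraries, 3 come from cells without ATRA (0 h), and 3 each from cells kept in ATRA at 1 µM for 4 h, for 2 d and for 4 d. The series followed transcripts, open chromatin and chromatin contacts during neutrophil differentiation, of which only the RNA is described here. The cells come from 1 line, and with no untreated cells of the later times, time in ATRA and time in culture cannot be told apart.

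In dividing cells cohesin holds sister chromatids together from DNA replication until anaphase, when separase cuts RAD21. In interphase the same ring, loaded by NIPBL, draws chromatin into loops until it is released by WAPL with PDS5 or is halted at CTCF sites. Neutrophil differentiation involves both an exit from the cell cycle and a rearrangement of nuclear shape and chromatin, and mutations of cohesin genes, STAG2 and RAD21 among them, recur in acute myeloid leukemia.

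The upstream promoter sequence is shown for the pair of members that rose against 0 h at both 2 d and 4 d, NIPBL and STAG1, and for the pair that fell between 2 d and 4 d, SMC1A and SMC3. Each run is the 250 bases before the RefSeq start site on build GRCh38.p14, given on the gene's own strand, for NIPBL at chr5:36876519-36876768 (+), STAG1 at chr3:136752379-136752628 (-), SMC1A at chrX:53422729-53422978 (-) and SMC3 at chr10:110567445-110567694 (+). Capitals mark matches, on either strand, to the motifs named after the sequences, so that GGGCGG can also appear as CCGCCC.
NIPBL: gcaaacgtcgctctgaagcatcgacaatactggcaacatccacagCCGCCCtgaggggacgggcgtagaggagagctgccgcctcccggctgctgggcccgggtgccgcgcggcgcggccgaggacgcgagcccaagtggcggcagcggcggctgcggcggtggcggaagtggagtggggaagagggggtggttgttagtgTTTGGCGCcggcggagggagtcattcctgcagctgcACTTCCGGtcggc
STAG1: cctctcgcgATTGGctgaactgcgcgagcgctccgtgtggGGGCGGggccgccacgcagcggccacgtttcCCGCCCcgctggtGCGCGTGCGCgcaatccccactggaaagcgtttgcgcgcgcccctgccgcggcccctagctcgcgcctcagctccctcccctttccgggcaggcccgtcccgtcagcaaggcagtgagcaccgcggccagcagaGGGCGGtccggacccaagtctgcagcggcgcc
SMC1A: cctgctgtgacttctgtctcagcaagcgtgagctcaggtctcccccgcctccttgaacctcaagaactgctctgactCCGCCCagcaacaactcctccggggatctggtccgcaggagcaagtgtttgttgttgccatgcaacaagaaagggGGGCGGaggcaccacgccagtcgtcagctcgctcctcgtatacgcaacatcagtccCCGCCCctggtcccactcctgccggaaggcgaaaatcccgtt
SMC3: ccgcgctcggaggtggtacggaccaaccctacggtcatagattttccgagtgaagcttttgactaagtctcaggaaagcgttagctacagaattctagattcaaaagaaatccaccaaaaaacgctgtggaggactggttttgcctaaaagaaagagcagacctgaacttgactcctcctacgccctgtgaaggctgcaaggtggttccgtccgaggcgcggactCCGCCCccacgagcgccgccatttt
Of the 10 genes 9 had a RefSeq promoter, all but RAD21, in 12 windows (3 for STAG2, 2 for SMC1A and 1 for each other gene). A gene counts below if any of its windows holds the motif, while the shares over the table are per promoter window, so the counts cannot be read as rates against them. The SP and KLF motif GGGCGG stood in the promoters of all 9 of these genes, and in 42.64% of the 35116 promoters of the table. The NF-Y motif CCAAT was found for STAG1, STAG2, PDS5A and PDS5B, and in 32.01% of all promoters. The NRF1 motif was found for STAG1 and STAG2, and in 5.07% of all promoters. The E2F motif TTTGGCGC was found for NIPBL and in 1 of the 3 windows of STAG2, 2 of the 12 windows, and in 0.55% of all promoters. The ETS motif CCGGAAGT was found for NIPBL, and in 3.42% of all promoters. No matches overlapped one another in the 4 sequences printed. The letters CACGTG (E-box), TGACGTCA (CRE) and those of the CTCF core motif were in none of the members' windows, and in 6.34%, 1.65% and 0.13% of all promoters. Both strands were searched, and a match describes letters in the window and not a bound site.

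Reads assigned to genes numbered 7866757 to 13658177 per library, and the members' reads ranged from 117 for STAG1 in 0 h replicate 2 to 4624 for SMC1A in 4 h replicate 2. Levels are given in CPM, a gene's reads relative to all gene reads of its library, after TMM scaling. Promyelocyte granule markers (MPO, ELANE, PRTN3, AZU1 and CTSG) summed to 8150 to 9510 CPM at 4 d and 30500 to 43700 CPM at 0 h, while HBA1 and HBA2 had no read in any library. Whether replicates were separate cultures is not in the labels, so a p-value here measures spread between libraries, which may be technical.

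Replicates stood apart in 1 way that touches most results below. In replicate 2 of 0 h, replicate 3 of 4 h and replicate 1 of 4 d, GC-rich transcripts were higher than in the mates of the same time, with slopes of 0.494, 0.369 and 0.317 in log2 units per 10 points of GC content, against -0.355 to 0.0616 in the other 9 libraries. The median of the 10 genes in these libraries lay at -0.61, -0.45 and -0.26 on the log2 scale relative to the mates. MAU2 went the other way, at 0.82, 0.21 and 0.75. Its transcript has 57.3% GC, against 36.5% for PDS5B to 47.7% for CTCF among the other members and a median of 49.1% over 8666 genes. In the same 3 libraries PDS5B was at -0.65, -0.58 and -0.06, and CTCF at -0.64, -0.26 and -0.23. Calls were therefore also made with offsets for GC content and transcript length and without these 3 libraries, and for the 10 members these calls stand beside the results where they differ. The 3 libraries were picked because they stood apart from their mates in these same data. Leaving them out narrows the spread between replicates by choice, so adjusted p-values of that fit can be too small. The offsets were fitted to these same libraries, so adjusted p-values of the fit with offsets can be too small as well. The part of GC content in the results was not tested beyond that.

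**Figure D1:**
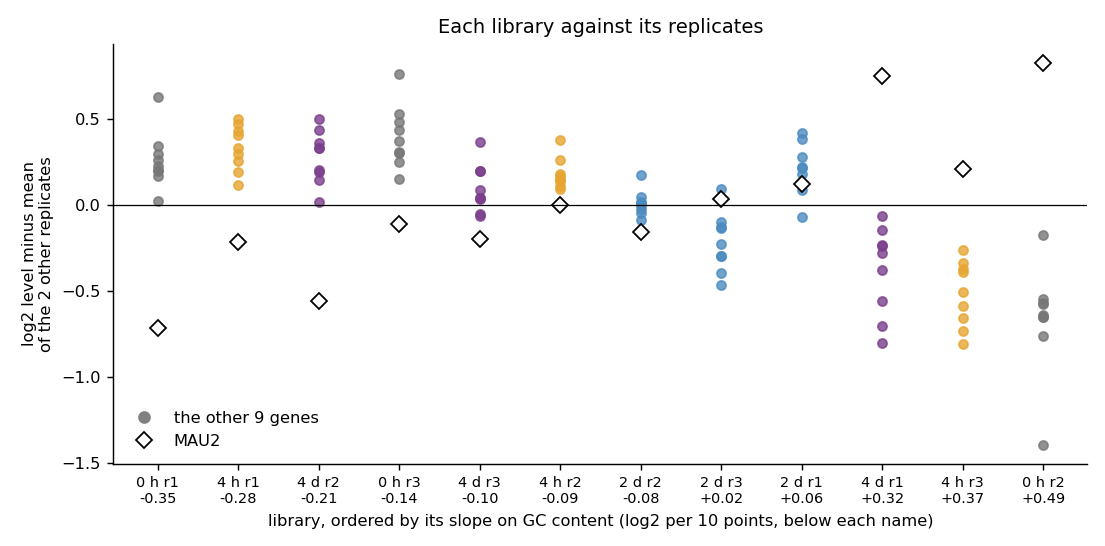
Log2 level of each of the 10 genes in a library minus the mean of the other 2 replicates of its time, with libraries coloured by time and ordered by their slope on GC content. The 3 libraries with the highest slopes (replicate 2 of 0 h, replicate 3 of 4 h and replicate 1 of 4 d) have MAU2 (open diamond) above 0 and the other genes (filled circles) below it.

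The ring genes SMC1A and SMC3, whose proteins form its arms, had their lowest levels at 4 d. SMC1A was at 220.1, 139.6 and 253.6 CPM at 0 h, 344.5, 335.6 and 269.7 CPM at 4 h, 318.7, 268.5 and 212.3 CPM at 2 d, and 88.8, 135.5 and 125.7 CPM at 4 d (replicates 1, 2 and 3). All 3 libraries of 4 d lay below every library of the other 3 times, and all 3 of 4 h lay above every library of 0 h. SMC3 was at 92.7, 64.9 and 100.6 CPM at 0 h, 124.4, 113.1 and 90.6 CPM at 4 h, 98.5, 94.9 and 90.3 CPM at 2 d, and 52.8, 73.3 and 64.1 CPM at 4 d. Its 4 d libraries lay below all of those of 4 h and 2 d, and overlapped 0 h through 0 h replicate 2 alone.

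RAD21, the kleisin that closes the ring and is cut at anaphase, was at 120.2, 47.2 and 128.0 CPM at 0 h, 182.0, 170.3 and 136.2 CPM at 4 h, 169.9, 173.9 and 140.0 CPM at 2 d, and 66.5, 117.8 and 114.0 CPM at 4 d. Every 4 h and 2 d library lay above every 0 h and 4 d library, while 0 h and 4 d overlapped. The mean at 4 d was 99.4 ± 28.6 CPM, against 98.5 ± 44.6 CPM at 0 h (SD, n = 3 each), and the 0 h libraries had the widest relative spread of any member at that time.

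STAG1 and STAG2 are the alternative subunits that bind RAD21, of which STAG2 is the more abundant form in most somatic cells. STAG1 was at 15.6, 10.6 and 18.1 CPM at 0 h, 28.9, 28.2 and 16.3 CPM at 4 h, 35.2, 29.7 and 24.5 CPM at 2 d, and 21.5, 28.6 and 23.95 CPM at 4 d. Every 2 d and 4 d library lay above every 0 h library. STAG2 was at 65.0, 44.2 and 66.1 CPM at 0 h, 107.5, 91.4 and 63.0 CPM at 4 h, 92.1, 83.1 and 74.9 CPM at 2 d, and 57.0, 99.5 and 86.5 CPM at 4 d. Only the 2 d libraries of STAG2 were all above those of 0 h.

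NIPBL, the subunit that loads cohesin and drives its motion, was at 48.9, 44.7 and 51.9 CPM at 0 h, 77.4, 70.2 and 44.3 CPM at 4 h, 85.0, 73.8 and 72.5 CPM at 2 d, and 83.5, 98.3 and 86.9 CPM at 4 d. Every 2 d and 4 d library lay above every 0 h library, and every 4 d library above every 4 h library. MAU2, which binds and stabilizes NIPBL, was at 108.7, 221.6 and 143.7 CPM at 0 h, 122.6, 135.4 and 149.2 CPM at 4 h, 192.5, 169.2 and 184.8 CPM at 2 d, and 341.4, 186.6 and 220.5 CPM at 4 d. Its highest value at 4 d was that of replicate 1 and its highest at 0 h that of replicate 2, through which the 2 times overlapped.

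PDS5A and PDS5B bind RAD21 and take part both in the release of cohesin and in its protection during S phase. PDS5A was at 121.2, 82.1 and 118.7 CPM at 0 h, 162.1, 150.5 and 110.2 CPM at 4 h, 133.9, 118.6 and 102.7 CPM at 2 d, and 79.0, 94.3 and 91.6 CPM at 4 d. PDS5B was at 47.7, 30.1 and 47.0 CPM at 0 h, 65.0, 58.6 and 41.1 CPM at 4 h, 56.9, 58.1 and 61.4 CPM at 2 d, and 43.6, 45.4 and 45.9 CPM at 4 d. For both genes the 4 d libraries lay below all 2 d libraries and overlapped those of 0 h.

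CTCF was at 70.3, 47.6 and 78.2 CPM at 0 h, 96.7, 97.9 and 81.0 CPM at 4 h, 85.4, 76.9 and 73.9 CPM at 2 d, and 56.1, 68.3 and 63.6 CPM at 4 d. Its 4 h libraries were all above those of 0 h, and its 4 d libraries all below those of 4 h and 2 d. The means at 4 d and 0 h were 62.7 ± 6.15 and 65.4 ± 15.9 CPM (SD, n = 3 each), with overlapping libraries.

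**Figure D2:**
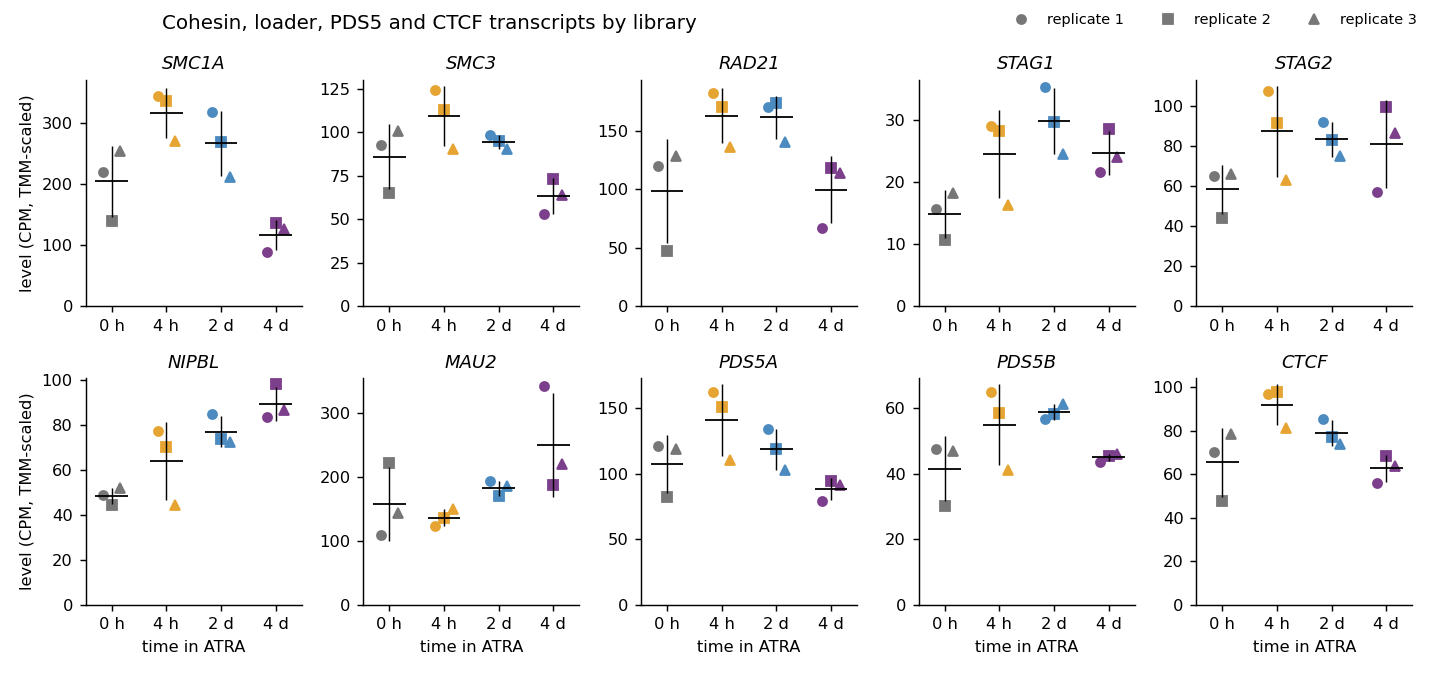
Level in CPM (TMM-scaled, axes from 0) of each of the 10 genes in all 12 libraries by time in ATRA, 1 marker shape per replicate number, with bars for mean ± SD. SMC1A and SMC3 are lowest at 4 d, NIPBL is above 0 h in every library of 2 d and 4 d, and RAD21 is high at 4 h and 2 d and low at 0 h and 4 d.

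Levels can be set between genes only per length of transcript. Over all 12 libraries MAU2 stood highest at 36.3 CPM per kb, followed by RAD21 at 34.8, SMC1A at 23.1, SMC3 at 21.5, CTCF at 18.7, PDS5A at 15.9, STAG2 at 12.8, NIPBL and PDS5B at 6.69 and 6.68, and STAG1 at 3.87. This order was not that of every time: at 4 h RAD21 (43.4 CPM per kb) and SMC1A (32.4 CPM per kb) stood above MAU2 (27.2 CPM per kb), and at 2 d RAD21 (43.0 CPM per kb) stood above MAU2 (36.5 CPM per kb). At 0 h, mean ± SD overlapped between all neighbours of the order from MAU2 (31.6 ± 11.6 CPM per kb) down to PDS5A (15.0 ± 3.05 CPM per kb). STAG2, at 9.66 ± 2.04 CPM per kb, and STAG1, at 2.44 ± 0.629 CPM per kb, stood apart from their neighbours, while PDS5B and NIPBL overlapped at 5.55 ± 1.33 and 4.65 ± 0.350 CPM per kb. SMC1A and SMC3, which enter the ring as partners, were both at 20.9 CPM per kb at 0 h. At 4 d SMC1A was at 11.9 ± 2.52 and SMC3 at 15.4 ± 2.49 CPM per kb, and NIPBL was at 8.58 ± 0.740 CPM per kb, above PDS5B at 6.0 ± 0.159 CPM per kb (SD, n = 3). Lengths are those of principal GENCODE transcripts and not of the isoforms in these cells.

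Changes between times were tested with edgeR's quasi-likelihood test in 1 fit to all 12 libraries, and an adjusted p is Benjamini-Hochberg adjusted over the 12671 tested genes. A gene was called at an adjusted p under 0.05, and fold changes are log2 values ± SE, the later time over the earlier. Over all 4 times 7 of the 10 members were called in edgeR's F-test, against 63.2% of all tested genes. CTCF, PDS5A and MAU2 were close to the threshold (edgeR adjusted p = 0.0473, 0.0444 and 0.0397). Only 3 members were called without 4 d replicate 1 or without 4 d replicate 3. There were 4 without any 1 of 4 h replicate 1, 4 h replicate 2, 2 d replicate 1 and 2 d replicate 2, or with library totals alone. All 10 were called without the 3 GC-rich libraries. Shares of all genes in these alternative fits are given only for the pairwise tests against 0 h, which are not the F-test. The counts of members above thus have no background of their own test. Pairwise, the fit without the 3 libraries called 24.9% at 4 h and 68.1% at 4 d, beside 6.23% and 57.8% with all libraries. Without 4 d replicate 1 or 4 d replicate 3 the pairwise share at 4 d was 56.8% or 50.4%. In the full fit SMC1A had the smallest edgeR adjusted p at 0.00106, followed by NIPBL at 0.00587 and SMC3 at 0.0164. RAD21, STAG2 and PDS5B were not called, with edgeR adjusted p of 0.0731, 0.161 and 0.104. Comparisons that share a group of libraries, such as the 3 against 0 h, are not independent of each other.

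The 4 h comparison asked which transcripts had changed within hours of ATRA. No member was called at 4 h against 0 h by edgeR, DESeq2 or limma-voom, beside 6.23% of all tested genes called by edgeR. At an unadjusted p under 0.05, edgeR gave 5 members, all with higher means at 4 h, beside 25.3% of all genes: CTCF, SMC1A, RAD21, STAG1 and STAG2. The median log2 fold change of the 10 members was 0.45, against 0.00 over all tested genes. With GC and length offsets it was 0.12, with NIPBL at -0.05 and PDS5B at -0.03. RAD21 had a log2 fold change of 0.73 ± 0.32 (edgeR adjusted p = 0.174), STAG1 of 0.73 ± 0.25 (edgeR adjusted p = 0.0984) and SMC1A of 0.63 ± 0.24 (edgeR adjusted p = 0.131).

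CTCF had a log2 fold change of 0.49 ± 0.18 at 4 h, with a 95% interval of 0.08 to 0.91 and an edgeR adjusted p of 0.12. MAU2 had -0.22 ± 0.26 (edgeR adjusted p = 0.594), and the other 5 members had 0.35 to 0.58. For CTCF, SMC1A and RAD21 the 4 h libraries all lay above those of 0 h, while 13% of all tested genes had such a separation in the higher direction. Without the 3 GC-rich libraries 8 members were called at 4 h, all higher and all but SMC3 and MAU2, whereas with GC and length offsets only CTCF was (0.44, edgeR adjusted p = 0.0338). The fit without the 3 libraries called more genes altogether, 3192 or 24.9% of those tested, of which 1573 were higher. The offsets also moved the balance of calls over all genes to 647 higher and 806 lower, against 254 higher and 536 lower without them. Leaving out 4 h replicate 3 alone gave calls for STAG1 (0.97, edgeR adjusted p = 0.0216) and NIPBL (0.62, edgeR adjusted p = 0.0201).

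At 2 d 5 of 6 granulocyte maturation markers (ITGAM, CD38, CYBB, CEBPE and NCF1) had risen against 0 h. The remaining marker, LYZ, was called lower, with means of 915.5 CPM at 2 d and 3229 CPM at 0 h. At this time 2 members were called higher against 0 h and none lower. Of all tested genes 35.6% were called in either direction and 16.9% higher. STAG1 rose by a log2 fold change of 1.01 ± 0.25 (edgeR adjusted p = 0.00665), with mean levels of 29.8 ± 5.34 CPM at 2 d and 14.8 ± 3.81 CPM at 0 h (SD, n = 3 each). NIPBL rose by 0.67 ± 0.19 (edgeR adjusted p = 0.014), with 77.1 ± 6.86 CPM at 2 d and 48.5 ± 3.65 CPM at 0 h. STAG1 was called in all 24 alternative fits, from 0.72 to 1.19. NIPBL was not called with GC and length offsets (0.21, edgeR adjusted p = 0.158) or without 2 d replicate 1 (0.60, edgeR adjusted p = 0.0608). With these offsets, in a fit that called 44.7% of all genes, RAD21 was called higher (0.62, edgeR adjusted p = 0.0383). RAD21, STAG2, MAU2 and PDS5B were also called higher without the 3 GC-rich libraries, in a fit that called 52.8% of all genes.

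The other members at 2 d ranged from 0.14 ± 0.19 for SMC3 to 0.71 ± 0.32 for RAD21 (edgeR adjusted p = 0.606 and 0.0944). PDS5B had 0.50 ± 0.20 (edgeR adjusted p = 0.0624) and CTCF 0.27 ± 0.18, with a 95% interval of -0.15 to 0.68 and an edgeR adjusted p of 0.265. The 2 d libraries lay above all 0 h libraries for RAD21, STAG1, STAG2, NIPBL and PDS5B, against 26% of all tested genes with a separation in this direction. Between 4 h and 2 d no member was called by edgeR, DESeq2 or limma-voom, beside 34.5% of all genes called by edgeR, and none had an unadjusted p under 0.05, beside 43.9% of all genes. The members' median at 2 d relative to 4 h was -0.04, with no stable sign, since it was -0.21 without 4 h replicate 3, -0.20 without the 3 GC-rich libraries, 0.09 without 4 h replicate 1 and 0.04 with GC and length offsets. MAU2 (0.42 ± 0.26, edgeR adjusted p = 0.225) was the only member whose libraries at 2 d were all above those of 4 h, against 25.8% of all genes. Without the 3 GC-rich libraries 5 members were called between these times, MAU2 higher and CTCF, SMC1A, SMC3 and PDS5A lower, beside 6725 or 52.5% of all genes in that fit, 3324 higher and 3401 lower.

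At 4 d against 0 h 3 members were called higher and 1 lower, beside 57.8% of all tested genes called in either direction, 28.1% higher and 29.7% lower. The libraries of 4 d lay above all of 0 h for STAG1 and NIPBL and below all of 0 h for SMC1A, against 29.1% and 29.9% of all genes with such separations. SMC1A fell by 0.81 ± 0.24 on the log2 scale (edgeR adjusted p = 0.011), to 116.7 ± 24.6 CPM at 4 d against 204.5 ± 58.6 CPM at 0 h (SD, n = 3 each). Without 0 h replicate 3 its change was -0.63 and was no longer called (edgeR adjusted p = 0.0551). SMC3 had -0.44 ± 0.19 (edgeR adjusted p = 0.0616). With GC and length offsets, in a fit that called 65% of all genes, SMC3 was called at -0.55 (edgeR adjusted p = 0.000186), as was PDS5A at -0.54 (edgeR adjusted p = 0.000291). Without the 3 GC-rich libraries both were called lower and STAG2 higher, beside the 4 members of the full fit, with 68.1% of all genes called.

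NIPBL rose by 0.88 ± 0.19 at 4 d (edgeR adjusted p = 0.00125), to 89.5 ± 7.72 CPM at 4 d against 48.5 ± 3.65 CPM at 0 h (SD, n = 3 each). It was called in all 24 alternative fits, which gave 0.43 to 0.96. STAG1 rose by 0.74 ± 0.25 (edgeR adjusted p = 0.021), a call that was lost without 0 h replicate 2 (0.55, edgeR adjusted p = 0.0817) and without 4 d replicate 2 (0.61, edgeR adjusted p = 0.0829). MAU2 rose by 0.66 ± 0.26 (edgeR adjusted p = 0.0422) although its libraries overlapped. Its call was lost in 14 of 24 alternative fits, and its change was 0.36 without 4 d replicate 1 (edgeR adjusted p = 0.215) and 0.31 with GC and length offsets (edgeR adjusted p = 0.145).

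CTCF and RAD21 had no called change at 4 d against 0 h. CTCF had -0.06 ± 0.18 with a 95% interval of -0.48 to 0.36 (edgeR adjusted p = 0.789), and RAD21 had 0.01 ± 0.31 with an interval of -0.71 to 0.74 (edgeR adjusted p = 0.971). The remaining members were STAG2 at 0.47 ± 0.24, PDS5A at -0.28 ± 0.19 and PDS5B at 0.11 ± 0.20. The median of the 10 members was 0.06, against 0.00 over all tested genes, and its sign depended on the libraries and the processing. It was -0.16 without 0 h replicate 2, -0.07 without the 3 GC-rich libraries and -0.05 with GC and length offsets, but 0.22 without 0 h replicate 3.

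**Figure D3:**
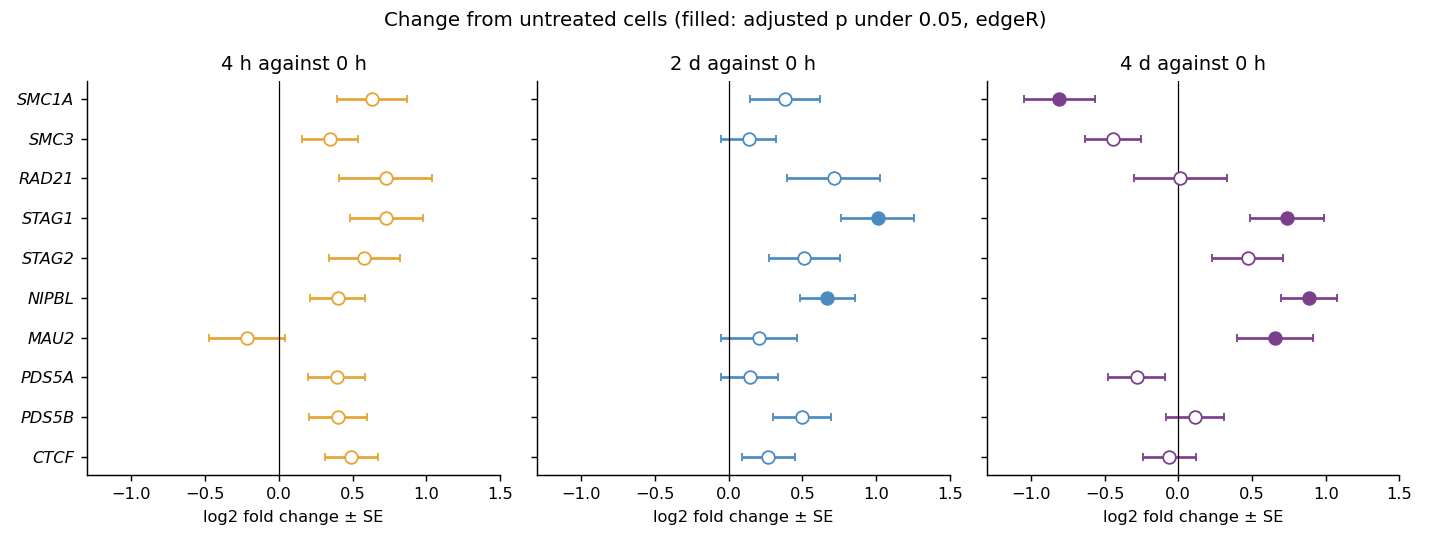
Log2 fold change ± SE of the 10 genes at 4 h, 2 d and 4 d, each over 0 h, with filled points for an edgeR adjusted p under 0.05. At 4 d NIPBL (0.88), STAG1 (0.74) and MAU2 (0.66) lie to the right of 0 and SMC1A (-0.81) to the left, while no point is filled at 4 h.

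From 2 d to 4 d 2 members fell and none rose, beside 26.6% of all tested genes called in either direction and 13.5% called lower. SMC1A fell by 1.19 ± 0.24 on the log2 scale (edgeR adjusted p = 0.00312), to 116.7 ± 24.6 CPM at 4 d against 266.5 ± 53.3 CPM at 2 d (SD, n = 3 each). This call held in all 24 alternative fits, which gave -1.34 to -1.02. SMC3 fell by 0.58 ± 0.19 (edgeR adjusted p = 0.0389), a call made in 16 of 24 alternative fits. It was lost without any 1 of 4 h replicate 2, 2 d replicate 1, 2 or 3, or 4 d replicate 1 or 3, with log2 changes of -0.62 to -0.46 and edgeR adjusted p of 0.0554 to 0.14.

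RAD21 had -0.70 ± 0.32 from 2 d to 4 d (edgeR adjusted p = 0.122), PDS5A -0.42 ± 0.19 (edgeR adjusted p = 0.128), PDS5B -0.39 ± 0.20 (edgeR adjusted p = 0.166) and CTCF -0.33 ± 0.18 (edgeR adjusted p = 0.2). For these 4 genes and for SMC1A and SMC3 every 4 d library lay below every 2 d library, 6 of 10 members, against 24.7% of all tested genes. STAG1, STAG2, NIPBL and MAU2 had changes of -0.27 to 0.45 with overlapping libraries. RAD21 was called at -0.70 without 0 h replicate 2 (edgeR adjusted p = 0.02). With GC and length offsets RAD21 and PDS5A were called, in a fit that called 39.1% of all genes. Without the 3 GC-rich libraries RAD21, PDS5A and PDS5B were called, where 43.3% of all genes were called.

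The step from 4 h to 4 d was compared after the data had been seen. In it 4 members fell and 2 rose, beside 60.5% of all tested genes called in either direction, 30.8% lower and 29.7% higher. SMC1A fell by 1.44 ± 0.24 (edgeR adjusted p = 0.000194), SMC3 by 0.79 ± 0.19 (edgeR adjusted p = 0.00286), PDS5A by 0.67 ± 0.19 (edgeR adjusted p = 0.00869) and CTCF by 0.55 ± 0.18 (edgeR adjusted p = 0.0171) on the log2 scale. MAU2 rose by 0.88 ± 0.26 (edgeR adjusted p = 0.00979) and NIPBL by 0.49 ± 0.19 (edgeR adjusted p = 0.0373). The call of CTCF was lost without 4 h replicate 2 (-0.51, edgeR adjusted p = 0.0594) and without 4 d replicate 1 (-0.48, edgeR adjusted p = 0.0603), that of MAU2 without 4 d replicate 1 (0.59, edgeR adjusted p = 0.0502) and with GC and length offsets (0.40, edgeR adjusted p = 0.0643), and that of NIPBL in 9 of 24 alternative fits, with 0.26 without 4 h replicate 3 (edgeR adjusted p = 0.142). SMC1A, SMC3 and PDS5A were called in all 24. RAD21 and PDS5B joined them as lower without the 3 GC-rich libraries, in a fit that called 68.1% of all genes. RAD21 was also called lower with GC and length offsets (-0.56, edgeR adjusted p = 0.0381), in a fit that called 68% of all genes.

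The 10 proliferation markers (MKI67, TOP2A, PCNA, MCM2, MCM5, CCNB1, CCNA2, CDK1, AURKB and BUB1) summed to 1560 to 2080 CPM at 0 h, 2110 to 2300 CPM at 4 h, 2020 to 2440 CPM at 2 d and 866 to 1080 CPM at 4 d, without overlap between 4 d and any other time. Of these markers 8 fell at 4 d against 0 h and none rose, beside 29.7% of all genes called lower, with MCM2 at -1.77 ± 0.21, PCNA at -1.46 ± 0.15 and MCM5 at -1.41 ± 0.20 (edgeR adjusted p = 1.13e-05, 2.27e-06 and 5.52e-05). MKI67 and TOP2A were the exceptions, at 0.16 ± 0.16 and -0.18 ± 0.29 (edgeR adjusted p = 0.417 and 0.628). At 2 d both had risen against 0 h, each by 0.92 on the log2 scale (edgeR adjusted p = 0.000809 and 0.0278). In bulk RNA, fewer cycling cells and less of a transcript per cell cannot be told apart. The part of the cell cycle in the members' changes was not tested.

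Ratios between members of the same library do not depend on its scaling. They were tested over the 4 times by an exact permutation test of the F statistic, which takes differences in any direction, over 369600 assignments of libraries to times, for which the smallest p is 6.5e-05, with p adjusted over 5 ratios. SMC1A over SMC3 differed between times (exact p = 0.00247, adjusted over 5 ratios 0.0123). Its log2 ratio of reads averaged 1.23 ± 0.12 before ATRA, 1.54 ± 0.06 after 4 h, 1.48 ± 0.23 after 2 d and 0.87 ± 0.11 after 4 d (SD, n = 3 each). Per transcript length SMC1A made up 49.6%, 55.0%, 53.9% and 43.5% of the sum of both genes in that order, and every 4 d library lay below all others. Without the 3 GC-rich libraries the adjusted exact p was 0.104, over 7560 assignments. The mean log2 ratios were then 1.29 ± 0.061 before ATRA, 1.52 ± 0.070 after 4 h, 1.48 ± 0.23 after 2 d and 0.93 ± 0.059 after 4 d (SD, n = 2, 2, 3 and 2), with the 4 d libraries still below all others.

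PDS5A over PDS5B also differed (exact p = 0.016, adjusted over 5 ratios 0.0399), with mean log2 ratios of 1.38 ± 0.06 before ATRA, 1.37 ± 0.05 after 4 h, 1.00 ± 0.25 after 2 d and 0.97 ± 0.10 after 4 d. Per length PDS5A held 73.1%, 72.9%, 67.6% and 67.1% of the sum. The adjusted exact p of this ratio was above 0.05 without any 1 of 10 libraries (up to 0.101 without 2 d replicate 2), the exceptions being 2 d replicate 1 and 2 d replicate 3. It was 0.071 after correction for GC content and length and 0.168 without the 3 GC-rich libraries.

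STAG1 over STAG2 averaged -1.99 ± 0.11 before ATRA, -1.84 ± 0.13 after 4 h, -1.49 ± 0.11 after 2 d and -1.69 ± 0.24 after 4 d on the log2 scale, and its exact p of 0.0396 was 0.066 after adjustment over the 5 ratios. Per length STAG1 held 20.1%, 21.8%, 26.2% and 23.8% of the sum, and its share in each 2 d library was above that in each 0 h and 4 h library. With GC and length corrected ratios the adjusted exact p was 0.0369, and without 4 d replicate 1 it was 0.0297. NIPBL over MAU2 (exact p = 0.612) and CTCF over RAD21 (exact p = 0.156, adjusted over 5 ratios 0.195) did not pass the threshold. CTCF over RAD21 averaged -0.49 ± 0.44, -0.82 ± 0.08, -1.03 ± 0.13 and -0.62 ± 0.33 on the log2 scale at 0 h, 4 h, 2 d and 4 d.

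**Figure D4:**
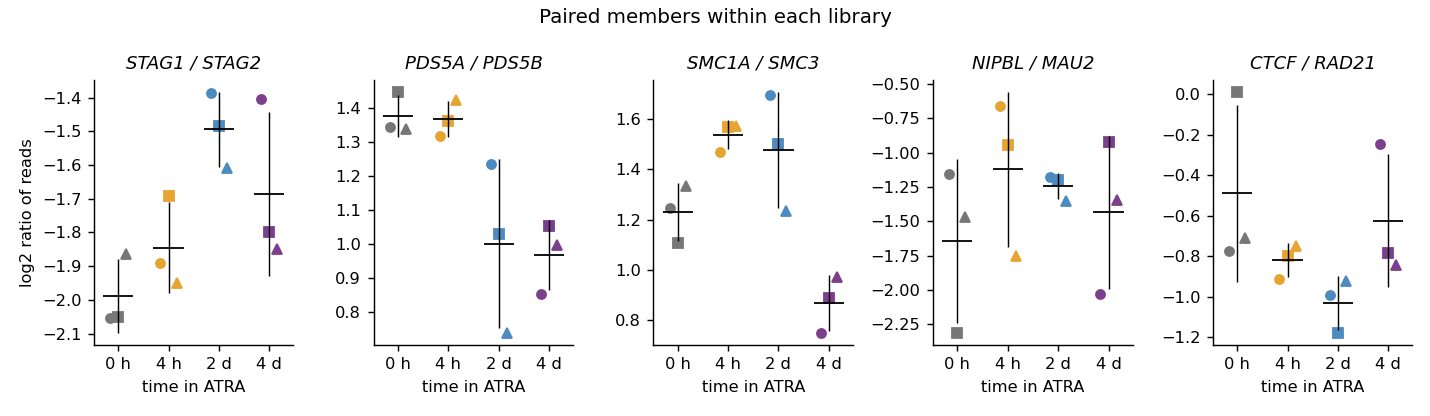
Log2 ratio of reads of 5 pairs of members in each of the 12 libraries by time in ATRA, with circles, squares and triangles for replicates 1, 2 and 3 and bars for mean ± SD. The SMC1A over SMC3 ratio is lowest in the 3 libraries of 4 d, and the PDS5A over PDS5B ratio is lower at 2 d (1.00) and 4 d (0.97) than at 0 h (1.38).

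A list of 11 genes tied to cohesin release, acetylation and cleavage also held DDX11 and ATAD5, whose roles are named below. Of the 11 genes 4 fell and none rose at 4 d against 0 h, beside 29.7% of all tested genes called lower and 28.1% called higher. From 2 d to 4 d 7 fell, beside 13.5% of all genes called lower. The median of the list was -0.31 at 4 d against 0 h, beside 0.00 over all genes. CDCA5 (sororin), which protects cohesin from release after replication, was at 130.2, 126.7 and 149.1 CPM at 0 h, 136.3, 146.6 and 176.6 CPM at 4 h, 134.5, 129.7 and 127.4 CPM at 2 d, and 59.3, 58.6 and 59.7 CPM at 4 d. Its 4 d libraries lay below all others, with a fall of 1.19 ± 0.14 on the log2 scale against 0 h (edgeR adjusted p = 1.16e-05).

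DDX11, a helicase needed for sister chromatid cohesion, fell by 1.60 ± 0.27 at 4 d against 0 h (edgeR adjusted p = 0.000189), and PTTG1 (securin), the inhibitor of separase, by 1.41 ± 0.18 (edgeR adjusted p = 2.29e-05). Both genes have near-identical copies in the genome with which reads may be shared, so their levels are uncertain. PTTG1 had already fallen at 2 d, by 0.81 ± 0.18 against 0 h (edgeR adjusted p = 0.00359), and ATAD5, which unloads PCNA from replicated DNA, rose there by 0.66 ± 0.20 (edgeR adjusted p = 0.0218). ESCO2, the acetyltransferase that locks cohesin in S phase, was at 11.8, 5.55 and 10.9 CPM at 0 h, 19.9, 21.0 and 14.0 CPM at 4 h, 14.6, 14.8 and 13.7 CPM at 2 d, and 2.60, 7.34 and 6.10 CPM at 4 d. It fell between 2 d and 4 d by 1.42 ± 0.34 (edgeR adjusted p = 0.00779). At 4 h against 0 h it had 0.96 ± 0.32, which edgeR did not call (adjusted p = 0.0935) and DESeq2 did (adjusted p = 0.047), as did edgeR without the 3 GC-rich libraries (0.85, edgeR adjusted p = 0.00105). At 4 d against 0 h it had -0.81 ± 0.34 (edgeR adjusted p = 0.0565), and was called at -0.91 with GC and length offsets (edgeR adjusted p = 0.00462) and at -0.76 without the 3 GC-rich libraries (edgeR adjusted p = 0.00106).

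ESCO1, its relative that acts through interphase, had 0.27 ± 0.19, 0.21 ± 0.19 and 0.32 ± 0.19 at 4 h, 2 d and 4 d against 0 h, none called (edgeR adjusted p = 0.361, 0.398 and 0.154). WAPL, which opens the ring and is listed under its older symbol WAPAL, had 0.43 ± 0.22, 0.47 ± 0.22 and 0.30 ± 0.22 at those times, none called (edgeR adjusted p = 0.237, 0.119 and 0.271). Without the 3 GC-rich libraries it was called higher at all 3 times, at 0.41, 0.29 and 0.32 (edgeR adjusted p = 0.0178, 0.0339 and 0.0233). WAPAL was at 50.9, 85.8 and 77.5 CPM at 4 d and at 65.7, 43.6 and 65.2 CPM at 0 h. In both groups the lowest value was that of the library with the highest GC slope.

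Of 5 germline paralogs of cohesin subunits and CTCF, 3 were tested, and RAD21L1 and CTCFL had too few reads. REC8, the kleisin that replaces RAD21 in meiosis, was at 2.57, 8.10 and 3.12 CPM at 0 h, 3.39, 3.56 and 3.39 CPM at 4 h, 3.77, 3.71 and 5.42 CPM at 2 d, and 22.8, 12 and 11.8 CPM at 4 d. All 4 d libraries lay above all others, and REC8 rose by 1.75 ± 0.38 against 0 h (edgeR adjusted p = 0.00157). STAG3, a meiotic partner subunit, had 0.38 ± 0.26 at 4 d against 0 h (edgeR adjusted p = 0.223).

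Of 8 other architectural factors 2 rose and 2 fell at 4 d against 0 h, shares near those of all genes (28.1% higher and 29.7% lower). MAZ and PATZ1, zinc-finger proteins reported at domain borders, fell by 1.08 ± 0.20 and 0.78 ± 0.15 on the log2 scale (edgeR adjusted p = 0.000515 and 0.000719), and ZNF143, a promoter-binding zinc-finger factor, rose by 0.65 ± 0.20 (edgeR adjusted p = 0.0126). LDB1, a cofactor of enhancer loops, also rose (0.47 ± 0.17, edgeR adjusted p = 0.0289).

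Of 13 genes of other SMC complexes (condensins, SMC5/6 and SMCHD1), 6 fell and none rose at 4 d against 0 h, beside 29.7% of all genes called lower. From 2 d to 4 d 9 fell and none rose, beside 13.5% of all genes called lower. The condensin II subunits NCAPH2 and NCAPD3 fell by 1.07 ± 0.24 and 0.80 ± 0.18 at 4 d against 0 h, and the condensin I subunit NCAPD2 by 0.73 ± 0.15 (edgeR adjusted p = 0.00166, 0.00165 and 0.0011).

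**Figure D5:**
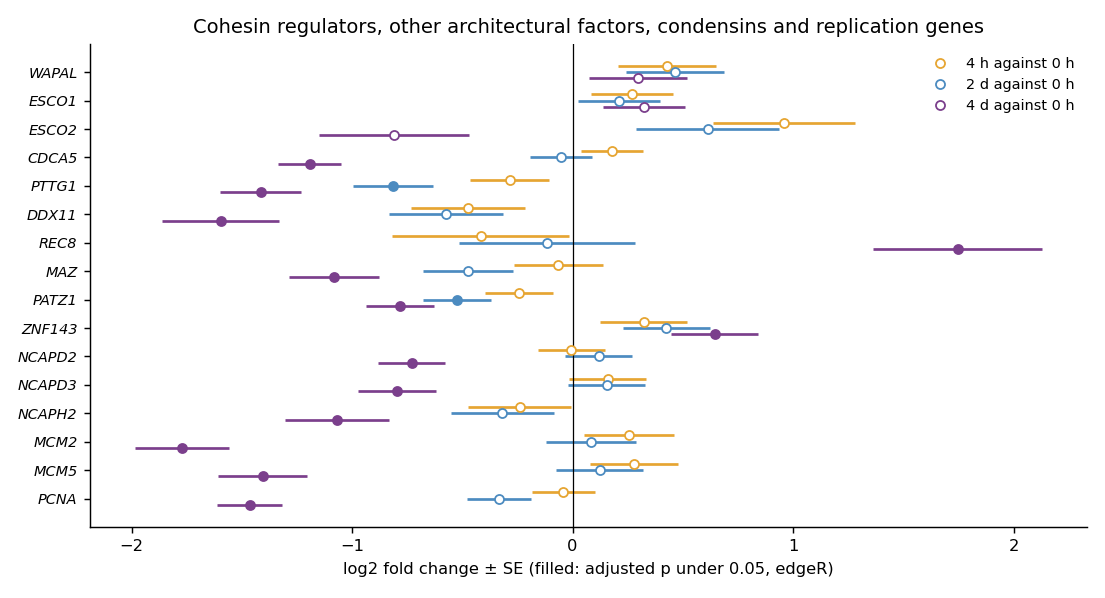
Log2 fold change ± SE of cohesin regulators, architectural factors, condensin subunits and replication genes at 4 h, 2 d and 4 d, each over 0 h, with filled points for an edgeR adjusted p under 0.05. At 4 d against 0 h DDX11 (-1.60), PTTG1 (-1.41) and CDCA5 (-1.19) lie left of 0 and REC8 (1.75) right of it.

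Across the 12 libraries the members followed a few shapes. SMC1A and SMC3 had a Pearson correlation of 0.968 in log2 CPM, PDS5A correlated with them at 0.928 and 0.955, and CTCF with RAD21 at 0.932. NIPBL correlated with STAG1 at 0.844 but with SMC1A at -0.201 and SMC3 at -0.135, and MAU2 with SMC3 at -0.854. These values describe 12 libraries that share their times, scaling and GC slopes. Deviations from the group means alone, which hold no change over time, correlated at 0.92 for SMC1A with SMC3, 0.743 for NIPBL with SMC3 and -0.837 for MAU2 with SMC3.

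The genes most like CTCF over the 12 libraries, among 8666 genes with a mean level of at least 10 CPM, were KRR1 (Pearson correlation 0.974), FAF2 (0.968) and PITPNB (0.967). Those most like RAD21 were UNC119B (0.985), FAM168B (0.984) and UGP2 (0.981). Those most like NIPBL were PIKFYVE (0.992), CHD9 (0.989) and DMXL1 (0.987). No member was among these 3 for CTCF, RAD21 or NIPBL.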

How the data were processed

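The authors deposited, for each library, read counts per gene as whole numbers. Per the submitters' processing notes, FastQC, Trim Galore 0.6.7, HISAT2 2.1.0, HTSeq 1.99.2 and the build hg19 were used; the annotation, strand setting and kit: not given in the sources used here. Reads in no gene made up 13.97% to 28.15% of a library and were left out.

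The fit used edgeR 4.0.16 in R 4.3.3 (filterByExpr, TMM, a quasi-likelihood fit with 1 mean per time, 8 residual degrees of freedom, Benjamini-Hochberg adjustment). Alternatives were DESeq2 1.42.0, limma-voom 3.58.1, other scalings and filters, offsets for GC content and length from GENCODE transcripts matched by symbol for 92.9% of genes, a replicate term, and libraries left out. The comparison of 4 d with 4 h was added after seeing the data. Ratios used log2 of reads plus 0.5.

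Members, lists and rules were chosen with earlier results of these data known. Named beyond the members were called list genes with the 3 largest changes at 4 d against 0 h, with WAPL, ESCO1, ESCO2 and CDCA5. ATAD5 and LDB1 were named after their values were seen, and STAG3, MKI67, TOP2A and LYZ were also named outside this rule. The fit was tested on simulated data with known changes at 4 d against 0 h in some of 12463 genes. It called 50% of 100 genes with a true log2 change of 1, up or down. Of 100 genes with a true change of 0.5 it called 4%, and there were 3 false calls. Most changes of the smaller size would thus be missed in data like the simulated ones, where no other genes changed. In the real data 57.8% of tested genes were called at 4 d against 0 h. The Benjamini-Hochberg threshold is less strict when more genes change, so these shares are not the power of the tests reported here.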

Additional observations from a re-analysis of the deposited data

How the results depend on the processing

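Counts of called members moved with the processing. Percentages in this paragraph are the share of all tested genes called in the same fit. At 4 h against 0 h (0 called, 6.23%), 3 were called with no filter on low counts (8.42%) and 1 with GC and length offsets (11.5%). There were 8 without the 3 GC-rich libraries (24.9%), and 0 to 2 with 1 library left out (2 without 4 h replicate 3, 11.7%). At 2 d against 0 h (2 called, 35.6%), there were 1 with the replicate block and GC and length offsets together (39.5%) and 6 without the GC-rich libraries (52.8%). There was 1 at an adjusted p under 0.01, and 1 to 3 with 1 library left out (1 without 2 d replicate 1, 24.2%). At 4 d against 0 h (4 called, 57.8%), there were 7 without the GC-rich libraries (68.1%), 1 at an adjusted p under 0.01, and 2 to 4 with 1 library left out (2 without 0 h replicate 3, 51.9%). For 2 d against 4 h (0 called, 34.5%), there were 5 without the GC-rich libraries (52.5%) and 1 in the fit to the 6 libraries compared (42.6%). For 4 d against 2 d (2 called, 26.6%), there were 1 with library totals alone (24.3%), 1 with the replicate block (20%) and 4 with GC and length offsets (39.1%). There were 5 without the GC-rich libraries (43.3%) and 4 in the fit to 6 libraries (32.9%). There was 1 at an adjusted p under 0.01, 1 at a fold of at least 1.5, and 1 to 3 with 1 library left out. For 4 d against 4 h (6 called, 60.5%), 3 to 7 were called with 1 library left out (3 without 4 d replicate 1, 56.8%). Over all times (7 called), there were 4 with library totals alone, 4 with the replicate block, 2 at an adjusted p under 0.01, and 3 to 7 with 1 library left out. The causes were not tested.

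Over all genes, 790 were called at 4 h against 0 h, with 1339 by DESeq2, 1960 with no filter, 381 with the replicate block, 1453 with GC and length offsets, 3192 without the GC-rich libraries, 261 in the fit to 6 libraries, 241 at an adjusted p under 0.01 and 254 to 1519 with 1 library left out. At an adjusted p under 0.01, 2705 were called at 2 d against 0 h (4512 in the main setting), 2711 for 2 d against 4 h (4377) and 1745 for 4 d against 2 d (3374). Without the GC-rich libraries 6725 were called for 2 d against 4 h and 5549 for 4 d against 2 d, and with 1 library left out 2110 to 4215 for 4 d against 2 d.

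The adjusted exact p of SMC1A over SMC3 was 0.0123, with 0.104 without the GC-rich libraries and 0.0781 with the replicate block. That of PDS5A over PDS5B was 0.0399, with 0.071 after GC and length correction, 0.168 without the GC-rich libraries, 0.0897 with the replicate block and 0.00503 to 0.101 with 1 library left out. That of STAG1 over STAG2 was 0.066, with 0.0369 after GC and length correction and 0.0297 to 0.156 with 1 library left out. No called change of a named gene reversed its direction in the alternatives tried. Samples with the same replicate number did not deviate together as a rule (correlations of -0.613 to 0.4). The GC-rich libraries carry different replicate numbers at 0 h, 4 h and 4 d, which bears on these correlations. They therefore cannot tell whether the numbers mark a pairing, and the replicate block is given as an alternative. Standard errors of the members' log2 fold changes, 0.18 for CTCF to 0.32 for RAD21 at 4 h, set how small a change could be called.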
